A study of Prunus persica with 8 samples.

Results

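In flower buds of the nectarine cultivar Fantasia (Prunus persica), 60 genes stood higher at 200 chilling units (CU) than both before and after it, and 49 genes stood lower there. They are called peak genes and dip genes. They were 109 of the 12883 genes with identifiers starting PRUPE_ that reached at least 5 FPKM (fragments counted for a gene, scaled to its length and to the sequencing depth) at one stage or more, and of 22285 features in all. Their level at 475CU was close to that at 0CU, so the departure at 200CU was followed by a return. Members were chosen from the stage values themselves on the scale log2(FPKM + 1). The 475CU and 0CU values had to lie within 0.5 of each other, and the 200CU value had to lie at least 0.6 above both (peak) or at least 0.6 below both (dip). The order of 0CU, 200CU and 475CU is therefore a description with no test. The 770CU value took no part in those limits beyond the 5 FPKM minimum, which was asked of the highest stage value.

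Buds of temperate fruit trees stop growing in autumn and stay dormant even in warm conditions until enough cold has been received. Chilling units add up the hours of effective cold, so that a stage in CU marks how far a bud has gone through its cold requirement. In peach, this period is known for large shifts of transcripts that act in growth arrest, cold and water stress and, later, flower development.

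The buds came from 10-year-old trees at 1 experimental farm, were cleaned of scales, and were taken at 0, 200, 475 and 770CU in 1 autumn and winter. RNA was depleted of ribosomal RNA and sequenced in 2 libraries per stage. The labels give 1 collection day for each stage, so the collection day and the stage cannot be told apart. The methods describe biological replicates from separate groups of plants for 0, 475 and 770CU and do not mention 200CU buds, for which nothing says whether the libraries came from separate plants. The p-values measure the spread between these libraries. Whole buds hold several tissues, and fewer cells of a type and less RNA per cell cannot be told apart. The identifiers are not paired with gene names here (0 of them matched the RefSeq table), so the tissue label could not be checked against marker genes and no function is given for most members. For the same reason only 2 peak genes and 2 dip genes are identified, by the size of their step. A further dip gene is identified because it carries a name.

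The table holds 1 FPKM value per gene and stage, a mean of 2 libraries. The libraries behind the mean were recovered, as whole fragments, for all 60 peak genes and for 48 of the 49 dip genes. Their effective sizes lay between 18051083 and 25374451 fragments. Which replicate of the labels a recovered library is cannot be said, so the libraries of a stage are called the larger and the smaller by their size. The median peak gene had 500.5, 1094, 579 and 289.5 fragments per library at 0, 200, 475 and 770CU, and the median dip gene had 498, 306, 504 and 618.

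Peak genes were middling in level at 0CU and 475CU. Their median was 15.3 FPKM at 0CU, 27.9 FPKM at 200CU, 16.2 FPKM at 475CU and 6.54 FPKM at 770CU, against a median between 14.3 and 14.6 FPKM at every stage over the 12883 genes. Summed over the 60 genes, the level was 1518, 2949.6, 1521 and 760.0 FPKM in the same order. The 200CU value exceeded the nearer of its neighbours by 0.60 to 1.45 on the log2 scale, with a median of 0.75, and by at least 1 in 10 genes. Within 0.05 above the limit stood 14 peak genes, and 29 genes that met the other conditions stood within 0.05 below it. The nearest peak gene inside the limit had a difference of 0.602, and the nearest gene outside it 0.599. For the distance between 475CU and 0CU, the outermost member lay at 0.484 and the nearest gene outside at 0.510, and for the highest value the corresponding levels were 5.366 and 4.466 FPKM.

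**Figure D1:**
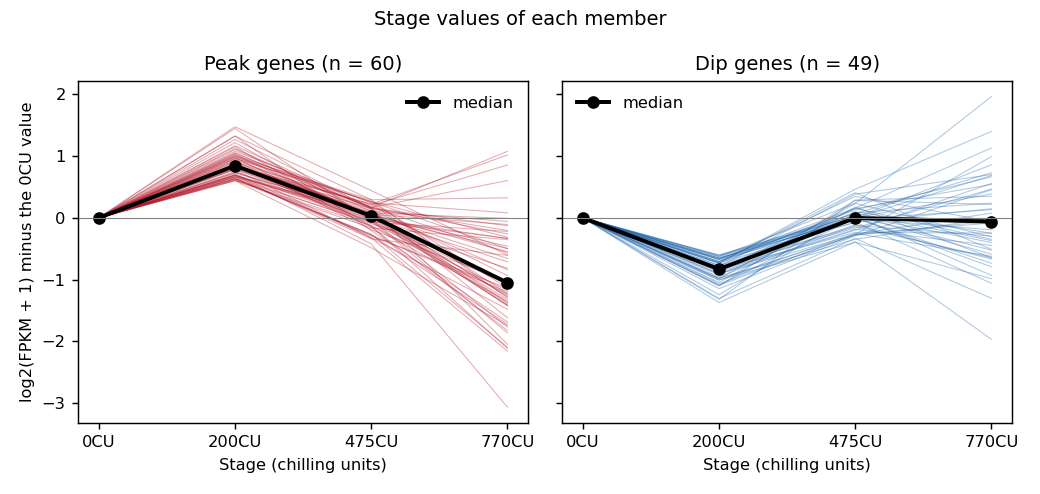
Each thin line is 1 gene, and its log2(FPKM + 1) minus its own 0CU value is plotted against the stage in chilling units, for the 60 peak genes on the left and the 49 dip genes on the right. The black line is the median, which for peak genes lies 1.05 below the 0CU level at 770CU and for dip genes 0.06 below it.

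The recovered libraries showed the same departure. Both 200CU libraries lay above all 4 libraries of 0CU and 475CU in 59 of the 60 peak genes, which is what the rule favours (11.9% of 12500 genes with recovered libraries did so). The mean of log2(FPKM + 1) over the peak genes was 3.88 and 4.07 in the larger and smaller 0CU libraries, 4.77 and 4.93 at 200CU, 4.09 with 3.86 at 475CU, and finally 3.11 with 3.04 at 770CU. No library of one stage crossed into the range of 200CU or of 770CU. The libraries of 0CU and those of 475CU overlapped.

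Libraries of 1 stage differed more in the peak genes than in the table as a whole. The median size of the difference between the libraries of a stage was 0.20, 0.23, 0.27 and 0.15 on the log2 scale at 0, 200, 475 and 770CU, against 0.13, 0.13, 0.08 and 0.09 over 12500 genes. The peak genes also leaned together within a stage. The larger library was the higher one in 14 of 60 peak genes at 0CU and in 49 of 60 at 475CU, against 5842 and 6092 of 12500 genes. The part of such library differences in the choice of these genes was not tested, but their effect on membership was measured. When each of the 8 libraries was left out in turn, so that its stage was the other library alone, the rule gave 54 to 129 peak genes and kept 41 to 60 of the 60. The 129 genes were found without the larger 200CU library. Only 17 of the 60 peak genes met the rule in every one of the 8 settings. The scale moved the number too, since 170 genes peaked at 200CU, all 60 among them, once each stage was set to the same total.

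**Figure D2:**
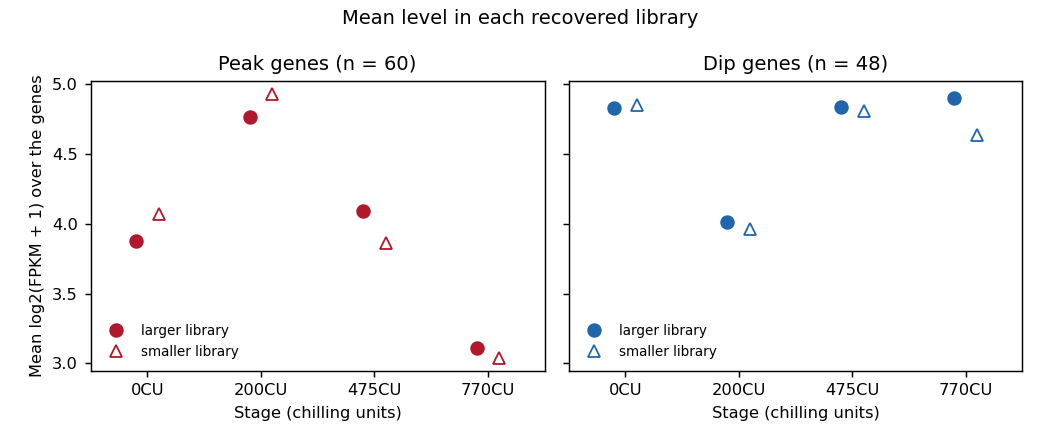
Points give the mean of log2(FPKM + 1) over the 60 peak genes (left) and over the 48 dip genes with recovered libraries (right) in each library, filled circles for the larger and open triangles for the smaller library of a stage. The 200CU libraries stand at 4.77 and 4.93 for peak genes and at 4.01 and 3.96 for dip genes, apart from every 0CU and 475CU library.

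The peak with the largest step was PRUPE_1G520700. It had 31.3 and 45.0 FPKM in the larger and smaller libraries at 0CU, 119 and 92.0 FPKM at 200CU, 41.4 and 32.6 FPKM at 475CU, then only 11.5 and 8.11 FPKM at 770CU. Its 200CU libraries were above every library of 0CU or 475CU, and its 770CU libraries were below all others. At 770CU the difference from 475CU was -1.83 ± 0.23 (SE) on the log2 scale (limma, adjusted p = 0.0035) and the difference from 0CU was -1.86 ± 0.23 (limma, adjusted p = 8.1e-04). The gene next to it in the order of gene numbers was also a peak gene and ran in parallel at a higher level, with 215, 479, 196 and 48.9 FPKM at the 4 stages.

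PRUPE_8G152100 followed the same course. Its libraries held 28.2 and 24.5 FPKM at 0CU, 59.4 and 75.4 FPKM at 200CU, 26.5 and 18.9 FPKM at 475CU, then only 7.62 and 7.37 FPKM at 770CU. The groups of 0CU and 475CU overlapped, while 200CU and 770CU stood apart from all others. The difference of 770CU was -1.46 ± 0.17 (SE) from 475CU (limma, adjusted p = 0.0029) and -1.68 ± 0.17 from 0CU (limma, adjusted p = 3.5e-04). Both genes met the rule in all 8 leave-one-out settings.

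**Figure D3:**
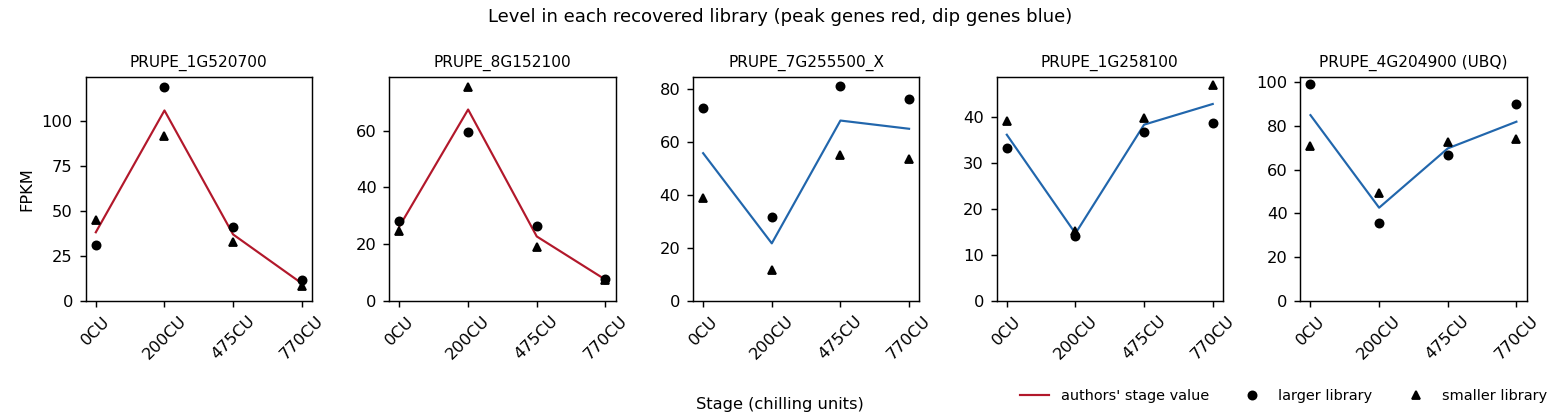
FPKM of the 5 identified members at 0, 200, 475 and 770CU, with circles for the larger and triangles for the smaller library of a stage and a line through the authors' stage values (red for peak genes, blue for dip genes). The 2 peak genes end lowest at 770CU, at 9.78 and 7.49 FPKM, and the 3 dip genes are back near their 0CU level by 475CU.

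Most peak genes were at their lowest at the last stage, whose values the limits on 200CU did not use. At 770CU, 40 of the 60 peak genes were lower than at 475CU by the limma test (adjusted p under 0.05), or 66.7%, and 2 were higher, against 6.42% lower and 4.56% higher of the 18234 features tested. The other 18 did not pass. Against 0CU, 42 were lower and 3 higher, where 19.6% and 21.5% of all features were called. The features tested were a wider set than the 12883 genes, with other identifiers and lower levels among them. Of the 60, 39 were lower against both stages. The change was sizeable, with a median of -0.99 for 770CU minus 475CU and a range of -2.64 to 0.91, while the median over the 12883 genes was -0.01. The 475CU and 0CU values, which define the rule, are the references of the tests. Leaving out any library of 475CU or 770CU lowered the number called against 475CU, but a stage left with 1 library weakens the test for every feature. The median of 770CU minus 475CU then ran from -1.06 without the smaller 475CU library to -0.79 without the larger.

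By level alone the picture was similar. The 770CU value was below all 3 earlier stages in 54 of the 60 peak genes, above all of them in 1 and within their range in 5, beside 31.0% below and 28.3% above over the 12883 genes. In 40 genes it was lower than the 475CU value by at least 0.6, in 3 it was higher by at least 0.6 and in 17 it lay between, where 5.89% and 2.64% of the 12883 genes were lower and higher by that much. Against 0CU the counts were 38 lower, 4 higher and 18 between, beside 9.92% and 9.80% of the genes. Both 770CU libraries lay below all 6 earlier libraries in 47 peak genes and above all 6 in 0, against 17.9% and 16.4% of 12500 genes. Since the rule set 200CU high in the peak genes, a level above all earlier ones was largely barred for them. A level below all earlier ones had to undercut only 0CU and 475CU, so these shares are given as a description only. So the usual course of a peak gene was a higher level at 200CU, a return at 475CU and a level below the starting one at 770CU. Across the 60 genes, 200CU minus 0CU and 770CU minus 475CU had a Spearman's rho of -0.03. The rule cut the first of these off at 0.6, and the genes share their libraries and are not independent. No conclusion is drawn from this value.

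The peak genes higher at 770CU than at 475CU numbered 5. In 3 of them the difference was at least 0.6, at 0.65, 0.80 and 0.91 on the log2 scale. Of these 3, 2 were consecutive in gene number on chromosome 7, with stage values of 19.0, 36.4, 22.0 and 35.2 FPKM and of 33.7, 61.4, 39.4 and 69.3 FPKM. Their 770CU level was thus close to that of 200CU in the first (log2 difference of -0.05) and above it in the second (0.17). Only 1 of the pair passed the limma test against 475CU.

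**Figure D4:**
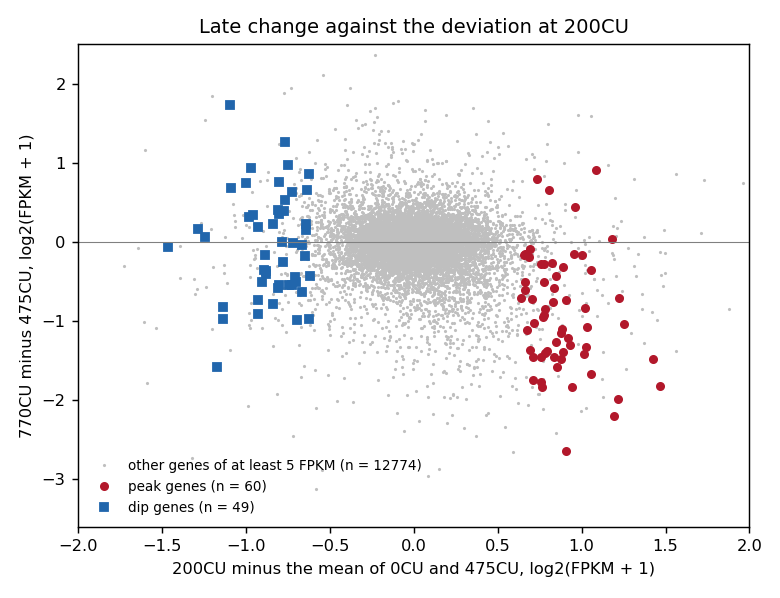
For each gene, 770CU minus 475CU is plotted against 200CU minus the mean of 0CU and 475CU, both in log2(FPKM + 1), with peak genes as red circles, dip genes as blue squares and 12752 other genes of at least 5 FPKM in grey (22 more lie outside the axes). Red points are mostly below the zero line (55 of 60), and blue points fall on both sides of it (26 of 49 below).

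Some peak genes neighboured each other. In the order of the gene numbers, 11 of the 60 (18.3%) stood next to another peak gene and 17 (28.3%) had another within 5 places, beside 0.630% and 2.73% of the 12863 genes of at least 5 FPKM with a chromosome number. The 17 formed 7 groups. The largest held 4 genes within 7 places on chromosome 5, at 15.4 to 68.4 FPKM at 0CU, 28.2 to 114 FPKM at 200CU, 17.1 to 72.7 FPKM at 475CU and 4.34 to 27.6 FPKM at 770CU, and all 4 were lower at 770CU than at 475CU by the limma test, with changes of -1.83 to -1.36 in the stage values. Another held 3 consecutive genes on chromosome 1, at 14.5 to 74.9 FPKM at 200CU and 5.57 to 15.6 FPKM at 770CU. Of these 3, 2 were lower at 770CU than at 475CU by the limma test. In a pair within 5 places on chromosome 4, 1 gene was lower by that test, with changes of -1.48 and -0.08 in the pair. Genes side by side can be copies of one another whose reads are hard to tell apart, and whether these are was not tested. By the chromosome number in the identifier, 17 peak genes (28.3%) were on chromosome 1 and 12 (20.0%) on chromosome 7, where 22.8% and 10.8% of the 12883 genes lay. Recovered lengths were ordinary, with a median of 2082 bases against 2272.

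Dip genes stood higher at 0CU than peak genes, which the rule favours, as it sets 0CU above 200CU in dip genes and below it in peak genes. The highest stage value had a median of 31.2 FPKM in dip genes and 27.9 FPKM in peak genes. By stage, the median of the dip genes was 29.6 FPKM at 0CU, 15.2 FPKM at 200CU, 28.3 FPKM at 475CU and 24.2 FPKM at 770CU. The most abundant of them had 1389, 838, 1843 and 975 FPKM at the 4 stages, and the lowest 200CU value was 1.76 FPKM. The step below the nearer neighbour was 0.60 to 1.32 in size, with a median of 0.71, and at least 1 in 5 genes. Of the dip genes, 15 lay within 0.05 inside the limit, and 23 other genes lay within 0.05 outside it. The nearest values on either side were 0.60 and 0.595 for the step, 0.462 and 0.503 for the distance of 475CU from 0CU, and 5.437 and 3.940 FPKM for the highest value.

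Both 200CU libraries were below all 4 libraries of 0CU and 475CU in 48 of the 48 dip genes with recovered libraries (13.0% of 12500 genes, again the contrast of the rule). The mean of log2(FPKM + 1) over these genes was 4.83 and 4.85 in the larger and smaller libraries of 0CU, 4.01 and 3.96 at 200CU, 4.84 with 4.81 at 475CU, and finally 4.90 with 4.64 at 770CU. Leaving out a library at a time gave 49 to 72 dip genes and kept 34 to 49 of the 49, and 15 met the rule in all 8 settings. With each stage set to the same total, 20 genes dipped, of which 16 were among the 49. The median difference between libraries of a stage was 0.19, 0.25, 0.19 and 0.20 at 0, 200, 475 and 770CU, also above that of all genes. At 770CU the larger library was the higher one in 33 of the 48 dip genes, against 6795 of 12500 genes.

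Dip genes did not share a course after 475CU. Against 475CU, 10 of the 48 tested were higher at 770CU by limma and 4 were lower, or 20.8% and 8.33%, beside 4.56% and 6.42% of all features. Against 0CU, 13 were higher and 9 lower, or 27.1% and 18.8%, beside 21.5% and 19.6%. The median of 770CU minus 475CU over the 49 was -0.03, from -1.58 to 1.73. It was 0.16 in the 15 dip genes that met the rule in all 8 leave-one-out settings and -0.17 in the rest, a difference not tested. The 770CU value was above all 3 earlier stages in 20 genes, below all in 4 and within their range in 25, beside 28.3% above and 31.0% below over the 12883 genes. It lay at least 0.6 above the 475CU value in 10 genes, at least 0.6 below in 9 and between in 30. Relative to the 0CU value these counts were 9, 11 and 29. Among the genes at least 0.6 below 475CU, some had larger and smaller 770CU libraries far apart. Examples held 41.9 and 16.9 or 22.3 and 8.07 FPKM, in features with recovered lengths of 288 and 267 bases. In others of them these libraries were close, as at 15.8 and 15.2 FPKM (2502 bases) or 1.62 and 1.58 FPKM (297 bases). All dip genes with a recovered length of 341 bases or less were lower at 770CU than at 475CU. Their changes were -1.58 to -0.37, and in each the larger 770CU library was the higher one. The part of length in these values was not tested. Both 770CU libraries were above all 6 earlier ones in 16 of 48 genes and below all 6 in 3, beside 16.4% and 17.9% of 12500 genes. The rule set 200CU low in the dip genes, so a level below all earlier ones was largely barred. A level above all earlier ones had to exceed only 0CU and 475CU. Nothing is read from either kind of count against the shares over all genes. The number called by limma changed with the library left out, and so did the balance of lower and higher calls. A stage left with 1 library also weakens the test for every feature. The median of 770CU minus 475CU over the 48 then ran from -0.15 without the larger 770CU library to 0.08 without the smaller, against -0.05 with all libraries. For 770CU minus 0CU it ran from -0.18 to 0.03 without the same libraries, against -0.07 with all. The scale matters as well, as the 4 lower and 10 higher calls became 2 and 18 when each stage was set to the same total.

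Chromosome 6 held 16 of the 49 dip genes (32.7%), where 13.8% of the 12883 genes lay. Of these 16, 5 were higher at 770CU than at 475CU by limma and 1 was lower. They included a pair within 3 places, at 10.6 and 11.1 FPKM at 0CU, 5.98 and 5.48 FPKM at 200CU, 15.0 and 9.54 FPKM at 475CU, then 29.6 and 16.8 FPKM at 770CU, both higher at 770CU than at 475CU by limma. Of the 49 dip genes, 2 (4.08%) stood next to another dip gene and 8 (16.3%) were within 5 places of one, in 4 pairs, beside 0.482% and 2.30% of the 12863 genes. In the other pair on chromosome 6, 770CU minus 475CU was -0.99 and -0.18 in the stage values. It was -0.79 and 1.26 in the pair on chromosome 8, and -0.07 and 0.06 in the pair on chromosome 7. Dip genes were shorter in recovered length, with a median of 1302 bases against 2272 over the 12500 genes.

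PRUPE_7G255500_X had the largest step of the dip genes. It held 72.6 and 38.7 FPKM in the larger and smaller libraries at 0CU, 31.8 and 11.5 FPKM at 200CU, 80.9 and 55.0 FPKM at 475CU, then 76.2 and 53.5 FPKM at 770CU. The larger library was the higher one at each stage, so its spread within a stage was wide, and 200CU still lay below all others. It no longer met the rule without the larger 0CU library or without the smaller 475CU library, where 475CU and 0CU drifted too far apart. At 770CU the difference was -0.06 ± 0.47 (SE) from 475CU (limma, adjusted p = 0.95) and 0.26 ± 0.47 from 0CU (limma, adjusted p = 0.68).

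PRUPE_1G258100 was steadier. Its libraries held 33.3 and 39.1 FPKM at 0CU, 14.1 and 15.2 FPKM at 200CU, 36.9 and 39.9 FPKM at 475CU, then 38.7 and 47.1 FPKM at 770CU. Only the 200CU libraries stood apart, and the other stages overlapped. The 770CU level differed by 0.15 ± 0.12 (SE) from 475CU (limma, adjusted p = 0.48) and by 0.24 ± 0.12 from 0CU (limma, adjusted p = 0.14), and the gene met the rule in all 8 leave-one-out settings.

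A dip gene with a name was PRUPE_4G204900, the ubiquitin gene (UBQ) to which the study scaled its real-time PCR of fruit mesocarp. Ubiquitin is a small protein that is attached to other proteins and marks many of them for breakdown, and its transcript is often taken as a constant reference. In the buds it had 99.1 and 70.7 FPKM in the larger and smaller libraries at 0CU, 35.7 and 49.5 FPKM at 200CU, 66.9 and 72.5 FPKM at 475CU, then 90.0 and 73.8 FPKM at 770CU. Both 200CU libraries were below the other 6, and the 0CU libraries overlapped those of 475CU and of 770CU, while both 770CU libraries lay above both of 475CU. The stage value at 200CU was 0.502 of that at 0CU, 0.611 of that at 475CU and 0.520 of that at 770CU.

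These ratios describe the values that chose the gene, so nothing is read from their size. UBQ did not pass the test at 770CU, with a difference of 0.22 ± 0.20 (SE) from 475CU (limma, adjusted p = 0.54) and of -0.04 ± 0.20 from 0CU (limma, adjusted p = 0.89). It met the rule in 6 of the 8 leave-one-out settings, the exceptions being those without the smaller 0CU library and without the larger 200CU library, and its smaller step fell short at -0.55 when each stage was set to the same total. Ubiquitin is encoded by a family of near-identical repeats in plants, so reads may be shared between copies and its level is uncertain. The 6 chromatin genes that the study followed in buds were not members.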

How the data were processed

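The authors deposited 1 table of FPKM for RNA-Seq of flower buds, with 1 value per feature at each of 4 stages. The submitters' processing notes name Trimmomatic 0.39, HISAT2 and featureCounts. Genome build, annotation and strand setting of the RNA-Seq are not given in the sources used here (the study states a build for its ChIP-Seq only). No column was left unused. Members, lists and tests were chosen with earlier results of these data known.

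A stage value was treated as an average over 2 libraries, with fragments counted whole and scaled by feature length and effective library size. Sizes were found from 264 low features. Lengths from 30 to 20000 were then searched for the shortest that gave whole numbers at all stages, with at most 0.01 such lengths expected by chance. That solved 21876 of 22285 features (98.2%), 405 being too high for the search. Rebuilt and deposited values differed by at most 5.0e-10 (relative), and of 2000 features with shifted values 0 were solved, against 1994 unshifted. The step was also run on simulated data, with no outcome given here. The study's methods give more replicates for 475CU buds than the labels do. The values of every stage were solved with 2 libraries.

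Limma 3.58.1 (R 4.3.3) was run on log2(FPKM + 1) of the recovered libraries, all 4 stages in 1 fit with a trend, over features that reached 1 FPKM in 2 libraries or more. P-values were adjusted by Benjamini-Hochberg over all features tested. The pseudocount of 1 understates changes of low genes. Identifiers named are the 2 peak and 2 dip genes with the largest smaller step among members of at least 1 FPKM at all stages, and members the study names. Identifiers 1G531100 to 1G531700 were left out by the rule. Python 3.11.15, numpy 2.4.6, numba 0.67.0 and pandas 2.3.3 were used. Promoters, proteins and gene positions were not analysed here.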

Additional observations from a re-analysis of the deposited data

How the results depend on the processing

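Setting each stage to the same total (TPM) raised the number of peak genes to 170, with all 60 among them, and lowered that of dip genes to 20, with 16 of the 49 among them. This scaling put the median of all genes at 0.24 for 200CU minus 0CU, at 0.22 for 770CU minus 475CU and at 0.31 for 770CU minus 0CU, where it was between -0.01 and 0.01 as deposited. The cause of the unequal totals was not tested. Under it 37 peak genes were lower and 4 higher at 770CU than at 475CU (40 and 2 as deposited), and 35 and 5 against 0CU. Dip genes then gave 2 lower and 18 higher against 475CU, and 3 and 19 against 0CU (9 and 13 as deposited). On this scale the median of 770CU minus 475CU was -0.76 for peak genes beside 0.22 for all features tested, where it was -0.99 beside 0.01 as deposited. A limit of 1.0 in place of 0.6 left 10 peak and 5 dip genes, by construction. Other pseudocounts, filters, scalings and a narrower band between 475CU and 0CU kept both numbers within 1.5 times. Leaving out 1 library at a time gave 54 to 129 peak genes and 49 to 72 dip genes. Called at 770CU against 475CU were then 24 to 43 peak genes and 5 to 15 dip genes, and against 0CU 37 to 47 and 12 to 22. A stage left with 1 library was assumed to vary like the others, and the test is then weaker for every feature. No paired analysis was possible because a stage has only 1 column, without replicate numbers. Low depth limits few members, the lowest being 4 fragments in a 770CU library.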

Other observations

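The same limits were met by features outside the PRUPE_ identifiers. Of 268 features with identifiers starting ENSRNA and at least 5 FPKM, 7 peaked and 19 dipped at 200CU, and of 256 starting XLOC, 1 peaked and 7 dipped. Unlike the PRUPE_ peak genes, the 7 ENSRNA peaks had a median of 0.20 for 770CU minus 475CU on the log2 scale, while the 19 ENSRNA dips had -0.85. No test was made of these values.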
